A study of Mus musculus with 9 samples.

Results

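Ribosomal RNA (rRNA) and small nuclear RNA (snRNA) reads were followed in exosomes from the mouse macrophage-like line RAW264.7. The set held every family with the class rRNA or snRNA in any library: 21 Rfam families (10 rRNA and 11 snRNA) of 757 Rfam families and 14206 features of all classes. Rfam groups RNAs by shared sequence and structure, so 1 family pools all gene copies and pseudogenes of an RNA. Each library listed 15 to 20 of the 21 families, and a family that a library did not list was counted as 0.

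Exosomes, small vesicles shed by cells, had been collected by ultracentrifugation from the medium of cells grown with 10% fetal bovine serum. The study compared 3 libraries from cells without treatment with 3 libraries after 24 h of silica and 3 libraries after 48 h of silica, a mineral dust that macrophages take up. All groups shared the line, the medium and the Trizol extraction of total RNA. The 3 libraries of a group are described as independent repetitions. The silica dose and the culture time of the untreated cells are not stated. RAW264.7 is a single transformed line, so the repetitions are cultures of 1 line and not animals.

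The rRNAs form the core of the ribosome: the small subunit rRNA (SSU, 18S in animals) decodes the message, the large subunit rRNA (LSU, 28S in animals) joins amino acids, and the short 5.8S and 5S rRNAs sit within the large subunit. The spliceosomal snRNAs remove introns: U1 pairs with the 5′ splice site, U2 with the branch point, U6 replaces U1 and helps form the catalytic centre, U4 escorts U6, and U5 holds the exons. U11, U12, U4atac and U6atac, with U5, serve a rare class of introns. U7 is no splicing RNA; it guides the cut that forms the 3′ end of replication-dependent histone messages. All of these RNAs act inside the cell. Whether the reads came from fragments or from whole RNAs, and from inside the vesicles, was not measured.

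Among the snRNAs on which the results below turn, U1, U2 and U7 are shown as their annotated mouse genes (GENCODE M21, GRCm38, the mm10 build). All are snRNA genes with a single exon and no coding region. The capitals mark the U1 bases that pair with the 5′ splice site, the U2 bases that pair with the branch point, and the start of the U7 site that binds its ring of Sm and Lsm proteins. The sequences show which RNA each family stands for; the files give neither the positions nor the lengths of the reads on them.
Rnu1a1 (U1), chr11:87422867-87423030, plus strand: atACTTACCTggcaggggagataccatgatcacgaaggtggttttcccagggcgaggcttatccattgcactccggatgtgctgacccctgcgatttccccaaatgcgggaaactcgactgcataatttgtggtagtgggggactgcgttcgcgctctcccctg
Rnu2-10 (U2), chr11:101658238-101658428, plus strand: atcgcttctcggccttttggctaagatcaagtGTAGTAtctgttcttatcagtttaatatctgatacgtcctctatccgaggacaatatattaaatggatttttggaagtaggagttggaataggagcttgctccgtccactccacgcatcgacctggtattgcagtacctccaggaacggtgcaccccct
Rnu7 (U7), chr6:124741225-124741286, minus strand: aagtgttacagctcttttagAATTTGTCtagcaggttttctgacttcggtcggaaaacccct
Counted from 1 at the 5′ end, the U1 stretch ACTTACCT starts at base 3, the U2 stretch GTAGTA at base 33 and the U7 stretch AATTTGTC at base 21. Searched on both strands of the 1383 annotated mouse snRNA-type transcripts, which include many pseudogene copies, these letters occurred in 4.41%, 4.77% and 0.289% of them.

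Values are reads per 1000000 counted reads (RPM), each family's count scaled by the total count of its library. In units of 1000000 counts the totals ran from 7.71 in the silica 24 h library 3 to 18.7 in the silica 48 h library 2. Of these totals 28.0% to 44.7% were known mature miRNA and 46.5% to 61.0% were summary entries for reads in exons, introns, intergenic regions or repeats; the silica 24 h library 3 had the lowest miRNA share and the highest share of these entries. A member's share of reads cannot separate fewer vesicles or cells giving an RNA from less of the RNA in each. All 8 macrophage-line miRNA markers were listed, 7 of them in every library, and miR-511-3p was at 0 in 5 libraries. Their summed level was 30856 to 40514 RPM in untreated, 18274 to 29926 RPM at 24 h and 32592 to 49491 RPM at 48 h, so the 24 h libraries lay below the others in this sum. miR-146a-5p and miR-21a-5p held most of it, with means of 18024 and 14857 RPM over the 9 libraries. The single markers were mixed: 0 of the 8 was lower in all 24 h libraries than in all untreated ones. On average miR-223-3p, miR-342-3p and miR-511-3p were higher at 24 h than in untreated and the others lower.

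Ribosomal RNA made up a few percent of each library and snRNA well under 1%. The summed rRNA families took 5.98%, 3.73% and 5.62% of the counted reads in untreated libraries 1 to 3, 3.55%, 2.28% and 3.80% at 24 h and 5.83%, 3.05% and 3.11% at 48 h. The summed snRNA families reached 1492, 768 and 2023 RPM in untreated, 1275, 903 and 839 RPM at 24 h and 692, 543 and 1476 RPM at 48 h. The groups overlapped for both sums. Counting error was far below these differences: the half-width of a 95% Wilson interval was at most 0.355% of the value for rRNA and 2.44% for snRNA, and it covers counting error only.

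The groups were compared by the class sums and by their ratio. On the log2 scale the mean rRNA level at 24 h differed from untreated by -0.68 (two-sided exact permutation test, p = 0.2) and the mean snRNA level by -0.42 (exact p = 0.5). Scaled with TMM factors, the rRNA difference at 24 h was -1.02 (exact p = 0.1). At 48 h the differences from untreated were -0.39 for rRNA (exact p = 0.3) and -0.69 for snRNA (exact p = 0.2). Both sums were lower at 48 h in all 3 same-numbered pairs, and the exact sign-flip permutation test of the pairs gave p = 0.25 for each, the smallest that 3 pairs allow. From 24 h to 48 h they were 0.28 and -0.27 (exact p = 0.6 for both). The log2 ratio of rRNA to snRNA reads differed by -0.26, 0.29 and 0.55 in the same 3 comparisons (exact p = 0.6, 0.7 and 0.5). With 3 libraries against 3 the smallest p possible is 0.1, and adjusted over the 9 tests every value was 0.675 or 0.7. Between the 2 times the rRNA difference became -0.025 without the silica 48 h library 1 and the snRNA difference 0.031 without the silica 48 h library 2; the ratio at 48 h against untreated became -0.14 without the silica 48 h library 1.

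No rRNA or snRNA family passed the test in any comparison. Of the 21 families 16 had enough counts to be tested (all 10 rRNA families, and U1, U2, U6, U4atac, U6atac and U7); U4, U5, U11, U12 and SmY did not. With edgeR's quasi-likelihood test on 1875 features and Benjamini-Hochberg adjustment, 0 of the 16 were called at 24 h or 48 h against untreated or between the 2 times, beside 0% of all features each time. DESeq2 called 13, 7 and 28 of all features in the 3 comparisons and no member. In simulated counts with the spread of the real features, edgeR called 8 of 75 features changed by a log2 of 4 in size. The changed features were drawn at random from all features tested, so this rate is not that of the members. At 24 h against untreated the median SE was 0.94 over the members and 1.70 over all features. Finding 0 calls does not show that the members were unchanged. At an unadjusted p under 0.05 the edgeR test held 2, 0 and 2 members, beside 6.03%, 2.93% and 9.28% of all features. The members' median log2 fold change was 0.20 at 24 h against untreated, beside 0.08 over all features tested. At 48 h it was -0.20 against untreated, beside -0.10. For 48 h against 24 h it was -0.24, beside -0.26. Leaving out 1 library moved the members' median at 24 h as far as -0.76 (without the silica 24 h library 3) and at 48 h against untreated from -0.65 (without the silica 48 h library 1) to 0.0044 (without untreated library 1). For 48 h against 24 h it ran from -0.75 (without the silica 48 h library 1) to 0.17 (without the silica 24 h library 3). With TMM factors the members' median at 24 h was -0.14, beside -0.25 over all features.

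**Figure D1:**
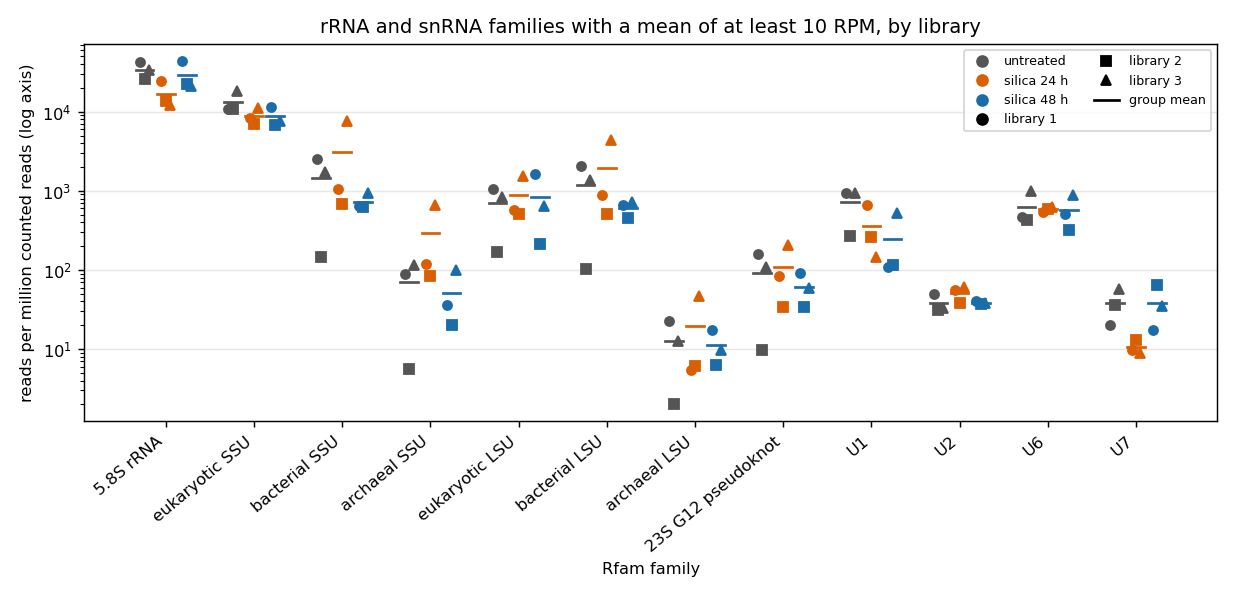
Reads per 1000000 counted reads (RPM, log axis) of the 12 rRNA and snRNA families with a mean of at least 10 RPM. Colour gives the group, marker shape the library number and a bar the group mean; the 3 silica 24 h libraries lie below the 3 untreated ones for 5.8S rRNA and U7, and the bacterial and archaeal families reach their highest level in the silica 24 h library 3.

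Among the rRNAs, 5.8S held the most reads in every library and lay lower at 24 h. It stood at 42937, 25990 and 33578 RPM in untreated libraries 1 to 3, at 24375, 13826 and 12252 RPM at 24 h, and at 43624, 22345 and 20854 RPM at 48 h. All 24 h libraries were below all untreated ones, while the 48 h libraries overlapped both groups. The group means were 34168 ± 8489 RPM (SD, n = 3) in untreated, 16818 ± 6592 RPM at 24 h and 28941 ± 12737 RPM at 48 h. The fitted log2 fold change at 24 h was -1.02 ± 0.43 (SE), a fold of 0.49, with an unadjusted p of 0.0365 and an edgeR adjusted p of 0.755. Over the alternative settings the log2 fold change stayed between -1.41 and -0.82, and the adjusted p ran from 0.187 to 0.853. At 48 h it was -0.24 ± 0.43 against untreated and 0.78 ± 0.43 against 24 h, with adjusted p of 1 and 0.541 in edgeR. With the replicate block the log2 fold change against untreated was -1.07 at 24 h (edgeR unadjusted p of 0.0095, adjusted p of 0.425) and -0.30 at 48 h. Library numbers were not taken to pair 24 h and untreated libraries, so the blocked 24 h value is an alternative only.

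The other rRNA of the nucleolar precursor with many reads, the eukaryotic SSU family (18S), did not separate the groups. It held 10907, 10915 and 18406 RPM in untreated, 8410, 7092 and 11188 RPM at 24 h and 11582, 6803 and 7742 RPM at 48 h. The highest value came from untreated library 3, and the groups overlapped. The fitted log2 fold changes were -0.59 ± 0.40 at 24 h and -0.62 ± 0.40 at 48 h against untreated, with edgeR adjusted p of 0.892 and 1. Scaled with TMM factors instead of the plain total, the 24 h libraries lay below all untreated ones for this family as well. The groups overlapped with the mature miRNA total, DESeq2's size factors and the total without the summary entries for genome regions. The log2 fold change at 24 h was -0.94 with TMM factors and -0.38 with the mature miRNA total. Reads of 5.8S per read of eukaryotic SSU ran from 1.10 in the silica 24 h library 3 to 3.94 in untreated library 1. Per 100 nt of annotated transcript, 5.8S (gene n-R5-8s1) stood 13.7 to 49.2 times above eukaryotic SSU (CT010467.1). GENCODE lists CT010467.1 as an rRNA gene at chr17:39846353-39848827 on GRCm38, and the length used was 1849 nt. It overlaps the locus Rn18s-rs5, which RefSeq lists as a pseudogene.

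The eukaryotic LSU family, which holds 28S rRNA, was less frequent and more variable. It stood at 1066, 171 and 848 RPM in untreated, at 572, 513 and 1551 RPM at 24 h, and at 1648, 215 and 638 RPM at 48 h. Low and high libraries occurred in every group, and the groups overlapped. Its log2 fold changes were 0.34 ± 0.82 at 24 h and 0.26 ± 0.82 at 48 h against untreated. The first of these became -0.36 without the silica 24 h library 3, -0.12 without untreated library 2 and -0.035 with TMM factors; the second became -0.70 without the silica 48 h library 1.

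5S rRNA, which is transcribed apart from the other rRNAs by RNA polymerase III, had few reads counted in its Rfam family. It had 25, 25 and 11 counts in untreated, 0, 21 and 27 counts at 24 h, and 134, 30 and 17 counts at 48 h, or 0 to 11.7 RPM. The silica 48 h library 1 held more than any other. The lowest count listed for any rRNA family was 10, beside 1 for snRNA families. The 0 of the silica 24 h library 1 may thus stand for a low count that was not listed. Per 100 nt of transcript, 5.8S exceeded 5S 2812 to 27553 times in the 8 libraries that listed 5S, although a ribosome holds the same number of each. No source used here says how reads matching several features were assigned, so 5S reads counted under other entries would not show here. The log2 fold changes of 5S were 0.17 ± 1.48 at 24 h and 1.75 ± 1.52 at 48 h, adjusted p 0.997 and 1 in edgeR.

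Summed over the 4 eukaryotic families (5.8S, 5S, SSU and LSU), the level was 54912, 37078 and 52833 RPM in untreated, 33357, 21432 and 24995 RPM at 24 h, and 56865, 29365 and 29236 RPM at 48 h. All 24 h libraries lay below the untreated ones in this sum, a summation added after the data had been seen. The log2 difference of the means was -0.86, and the exact permutation p was 0.1, the smallest that 3 against 3 libraries allow. The 24 h libraries also had the lowest macrophage-marker sum, although 0 of those 8 markers was lower in all of them than in all untreated libraries. They had the highest sum of the 6 serum, liver and red-cell miRNA markers. It stood at 980 to 1492 RPM, beside 244 to 822 RPM in untreated and 575 to 723 RPM at 48 h. Of these 6 markers miR-122-5p and miR-451a held most of the sum and were higher in all 24 h libraries than in all untreated ones. The others overlapped between these groups. On average miR-486b-5p and miR-192-5p were higher at 24 h. Lower on average were miR-486a-5p (1.93 RPM at 24 h, 2.39 RPM in untreated) and miR-144-3p, which was at 0 in 3 libraries. The 6 markers of other cells summed to 184 to 334 RPM in untreated, 175 to 385 RPM at 24 h and 167 to 284 RPM at 48 h. Among them miR-143-3p (22.2 RPM on average at 24 h, 5.70 RPM in untreated) was higher in all 24 h libraries than in all untreated ones. In the same way miR-200c-3p (19.4 and 30.9 RPM) was lower. The rest overlapped between 24 h and untreated, with miR-205-5p at 0 in 3 libraries and miR-1a-3p in 5. The part of these markers in the lower 5.8S level was not tested.

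**Figure D2:**
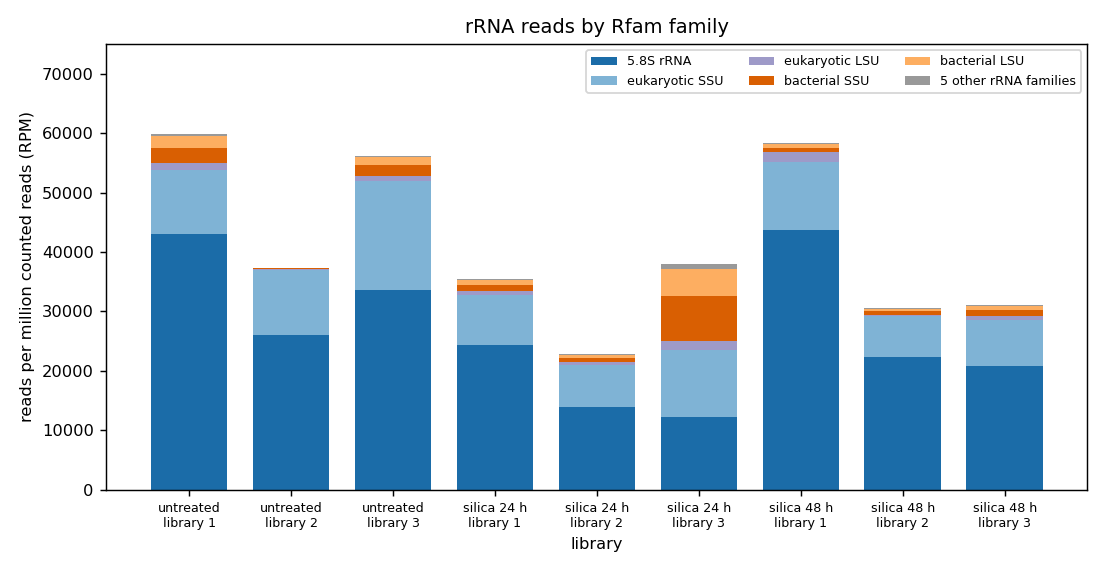
Stacked bars of rRNA reads in each library, in RPM, split by Rfam family (grey: the 5 rRNA families with the fewest reads). 5.8S and eukaryotic SSU fill most of each bar; in the silica 24 h library 3 the bacterial SSU and LSU families take a visible part.

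Together 5.8S and eukaryotic SSU made up 90.1% to 98.8% of rRNA reads in 8 libraries and 61.6% in the silica 24 h library 3. The remainder was split between eukaryotic LSU and the 6 families with bacterial, archaeal or microsporidial names, or, for the G12 pseudoknot, named for the bacterial 23S rRNA. Rfam family names do not show the organism a read came from, since rRNA cores are shared across life, and no source used here says how a read that matches several families was assigned. The 6 families summed to 4871, 268 and 3342 RPM in untreated, 2150, 1327 and 13039 RPM at 24 h, and 1453, 1134 and 1831 RPM at 48 h. Their share of rRNA reads ran from 0.717% in untreated library 2 to 34.3% in the silica 24 h library 3. Every one of the 6 was highest in that 24 h library and lowest in that untreated library.

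The bacterial SSU family (16S rRNA) held 2530, 146 and 1732 RPM in untreated, 1060, 687 and 7649 RPM at 24 h and 645, 618 and 928 RPM at 48 h. The bacterial LSU family (23S rRNA) held 2065, 104 and 1368 RPM in untreated, 880, 514 and 4442 RPM at 24 h and 656, 455 and 732 RPM at 48 h. In both families the 48 h libraries were close together, and the other groups each held 1 library far from the rest. Reads of bacterial LSU per 100 reads of bacterial SSU moved far less, from 58.1 to 102 over the 9 libraries, while bacterial SSU per 100 eukaryotic SSU reads moved from 1.33 to 68.4.

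The archaeal SSU family showed the same extremes, with 89.2, 5.63 and 117 RPM in untreated, 118, 84.1 and 672 RPM at 24 h and 36.4, 19.9 and 98.7 RPM at 48 h. The archaeal LSU family held 22.9, 2.02 and 12.8 RPM in untreated, 5.41, 6.03 and 47.0 RPM at 24 h and 17.4, 6.38 and 9.69 RPM at 48 h. The G12 pseudoknot of 23S rRNA held 159, 9.81 and 108 RPM in untreated, 85.1, 34.1 and 207 RPM at 24 h and 90.4, 33.7 and 59.5 RPM at 48 h. The groups overlapped for all of them. The microsporidial SSU family stayed between 0.70 and 22.2 RPM.

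The fitted changes of these families at 24 h moved with single libraries, above all the silica 24 h library 3. For bacterial SSU the log2 fold change was 1.09 ± 0.99 at 24 h against untreated and became -0.75 without that library. For bacterial LSU it went from 0.72 ± 0.95 to -0.76, for archaeal LSU from 0.63 ± 1.06 to -1.13 and for the G12 pseudoknot from 0.23 ± 0.93 to -0.63 (-0.15 with TMM factors and all libraries). Leaving out untreated library 2 instead gave 0.56 for bacterial SSU, 0.18 for bacterial LSU, 0.12 for archaeal LSU and -0.30 for the G12 pseudoknot. At 48 h against untreated bacterial SSU had a log2 fold change of -1.01 ± 0.99 and bacterial LSU of -0.94 ± 0.96 (edgeR adjusted p of 1 for both). Without untreated library 1 these became -0.36 and -0.26, without untreated library 2 they became -1.54 and -1.48, and with the replicate block -0.39 and -0.29. Archaeal SSU had the largest fitted value of the members, 2.04 ± 1.11 at 24 h against untreated, edgeR adjusted p 0.760, and 0.52 without that library. Between 48 h and 24 h archaeal SSU had a log2 fold change of -2.49 ± 1.13, an unadjusted p of 0.048 and an edgeR adjusted p of 0.521; without that library it was -0.97. In the same comparison and without that library archaeal LSU turned from -0.80 to 0.96 and the G12 pseudoknot from -0.83 to 0.039. The mean RPM at 48 h over that at 24 h likewise went from 0.23 to 0.84 for bacterial SSU. For bacterial LSU it went from 0.32 to 0.88. The lowest library total, the lowest share of mature miRNA and the lowest macrophage-marker sum also belonged to the silica 24 h library 3, and their part in these values was not tested.

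The same extremes occurred in 4 other RNAs that bacteria use. These were chosen after their values were seen, so their likeness is no separate evidence. Transfer-messenger RNA (tmRNA), which frees stalled bacterial ribosomes, reached 137 RPM for the alphaproteobacterial family in the silica 24 h library 3, beside 1.95 RPM in untreated library 2 and 5.59 to 65.9 RPM elsewhere. The betaproteobacterial tmRNA stood at 519 RPM and 96.0 RPM in the same 2 libraries. The bacterial small signal recognition particle RNA, which sends proteins to the membrane, stood at 15.1 and 0.56 RPM there, and bacterial RNase P, which trims tRNA precursors, at 11.7 and 0.28 RPM. None of the 4 was called in any comparison by edgeR. At 48 h against untreated their log2 fold changes, in the order named, were -1.57, 0.72, -1.41 and 0.0099. Betaproteobacterial tmRNA also stood at 414 RPM in the silica 48 h library 2.

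**Figure D3:**
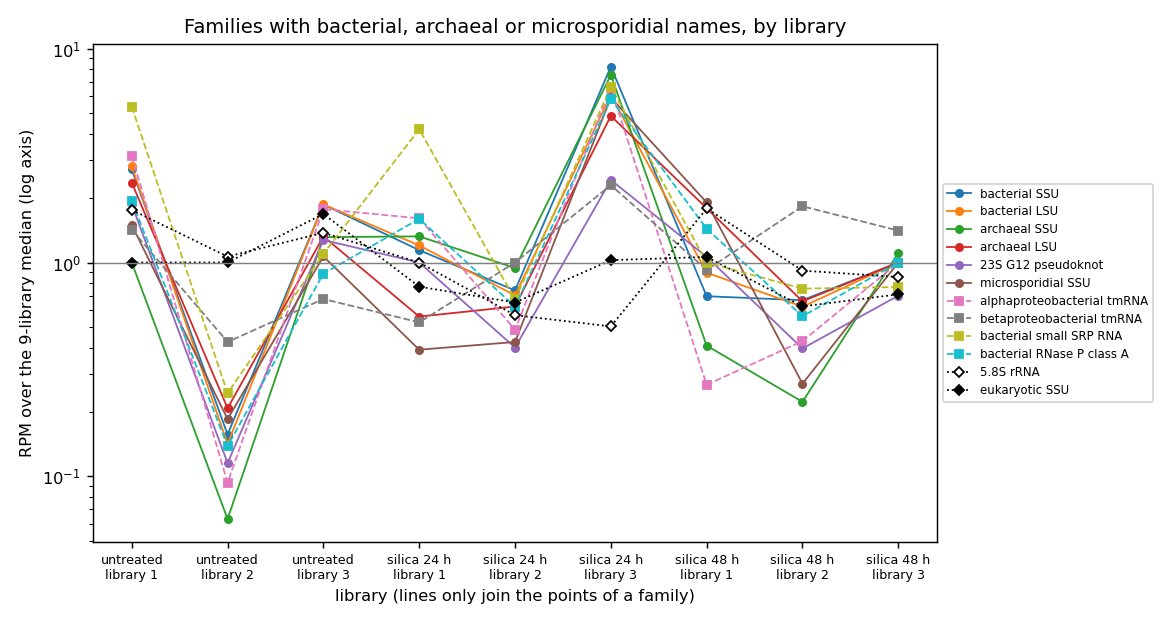
Level of each family divided by its own median over the 9 libraries (log axis), for the 6 rRNA families with bacterial, archaeal or microsporidial names (solid), the 4 bacterial RNAs (dashed) and, for comparison, 5.8S and eukaryotic SSU (dotted, diamonds). The 10 solid and dashed lines are all highest in the silica 24 h library 3 and all lowest in untreated library 2, and the dotted lines are not. The 4 bacterial RNAs were chosen after their values were seen.

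Among the snRNAs, U1 and U6 supplied 80.6% to 95.4% of the reads. U1 held 942, 271 and 946 RPM in untreated, 663, 260 and 144 RPM at 24 h and 110, 116 and 522 RPM at 48 h. High and low libraries occurred in every group, and the groups overlapped. The log2 fold changes were -1.02 ± 0.81 at 24 h and -1.53 ± 0.82 at 48 h against untreated, with edgeR adjusted p of 0.997 and 1. U6 held 474, 425 and 984 RPM in untreated, 543, 590 and 620 RPM at 24 h and 513, 322 and 878 RPM at 48 h, with log2 fold changes of -0.10 ± 0.53 and -0.14 ± 0.53 against untreated; the first was above 0 with other scalings (0.089 with the mature miRNA total). The 24 h libraries were close together for U6, and the other groups each had library 3 highest. U1 reads per U6 read ran from 0.214 in the silica 48 h library 1 to 1.99 in untreated library 1.

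U2, the partner of U1 in the early spliceosome, was the steadiest of all members, with a highest-to-lowest ratio of 1.96 over the 9 libraries. It held 49.9, 31.1 and 33.3 RPM in untreated, 56.2, 37.9 and 60.9 RPM at 24 h and 40.7, 37.1 and 38.6 RPM at 48 h. The 48 h libraries differed little, and the groups overlapped. Its log2 fold changes were 0.44 ± 0.56 and 0.03 ± 0.56 against untreated, with edgeR adjusted p of 0.997 and 1; the second was below 0 with other scalings (-0.042 with TMM factors). Per 100 nt of transcript U6 exceeded U2 15.5 to 52.7 times and U1 exceeded U2 2.76 to 33.1 times. By the same measure U6 was above U1 in 8 of 9 libraries.

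U4 and U5, the remaining RNAs of the major spliceosome, had few counts or none in each library. U4 had 14, 3 and 1 counts in untreated, 0 in each 24 h library, and 35, 0 and 0 counts at 48 h. Pooled over each group and scaled by the totals, the 18 counts in untreated stood 4.87-fold above a floor of 3 counts. That floor was set for the 0 of 33022341 counts at 24 h. The fold leaves out the spread between libraries, and 1 untreated library gave 14 of the 18. U4 was too sparse to be tested. U5 had 10 counts in all 9 libraries together, with at most 4 in 1 library, although a spliceosome holds it beside U6. At this depth differences between groups were not detectable for U5.

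The minor spliceosome was as sparse. U6atac, the counterpart of U6, was listed in all 9 libraries at 0.98 to 4.66 RPM and had log2 fold changes of -0.25 ± 1.04 and -0.08 ± 1.04 against untreated. U4atac had 55 counts over 6 libraries. U11, which recognises the 5′ splice site of the rare introns, had 7 counts, 6 of them in the silica 48 h library 1, and U12, which recognises their branch point, had 2. The 4 families summed to 1.78 to 4.76 RPM. SmY, a family described from nematodes, was listed with 44 counts, 32 of them in the silica 48 h library 1, where U4, U5, U11, U4atac and 5S were also highest.

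U7 was lower in all 24 h libraries than in any other library. It stood at 19.98, 36.3 and 57.1 RPM in untreated, at 9.63, 13.1 and 8.95 RPM at 24 h and at 17.2, 64.1 and 34.9 RPM at 48 h. The same 24 h libraries had the lowest macrophage-marker sum (18274 to 29926 RPM), most of it miR-146a-5p and miR-21a-5p. They had the highest serum, liver and red-cell sum (980 to 1492 RPM), with miR-143-3p higher and miR-200c-3p lower than in untreated. The part of these markers in the U7 level was not tested. The group means were 37.8 ± 18.6 RPM (SD, n = 3), 10.6 ± 2.23 RPM and 38.7 ± 23.7 RPM. At 24 h against untreated the log2 fold change was -1.84 ± 0.72, a fold of 0.28, with an unadjusted p of 0.0262 and an edgeR adjusted p of 0.755. For 48 h against 24 h it was 1.87 ± 0.72, unadjusted p 0.0241, edgeR adjusted p 0.521. At 48 h against untreated it was 0.04 ± 0.70, and -0.025 with TMM factors. Over the alternative settings the first value stayed between -2.17 and -1.41 with adjusted p from 0.189 to 0.853, and the second between 1.30 and 2.23 with adjusted p from 0.0824 to 0.709.

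The separation of groups for 5.8S and U7 is to be read against all features. At 24 h against untreated 2 of the 16 tested members did not overlap, both lower, while 13.8% of all features did not overlap in either direction and 4.27% were lower. At 48 h against untreated it was 0 of 16, beside 3.89%. For 48 h against 24 h it was 1 of 16, U7, higher, beside 16.5% in either direction and 4.37% higher. The 2 comparisons of 24 h share the same 24 h libraries.

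**Figure D4:**
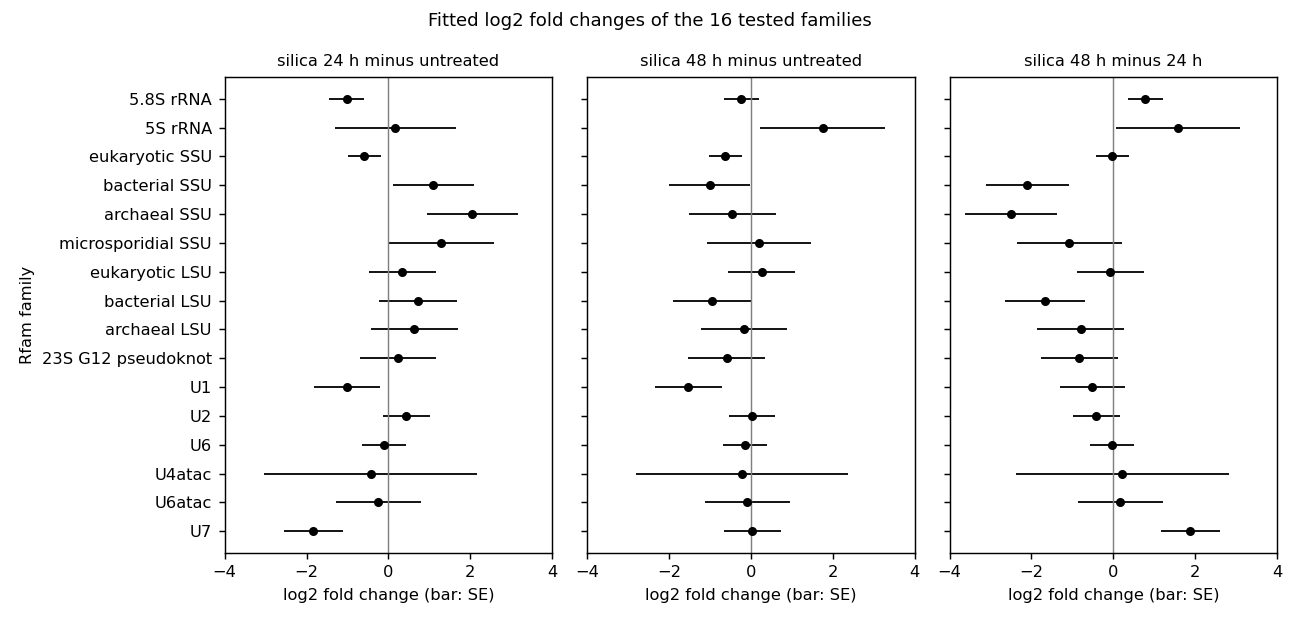
Log2 fold change and its standard error (bar) from the edgeR fit for the 16 tested families, in the 3 comparisons (first group minus second). U7 (-1.84) and 5.8S (-1.02) lie left of 0 at 24 h against untreated, and no family passed the adjusted threshold. The rRNA families with bacterial and archaeal names lie left of 0 between 48 h and 24 h. Without the silica 24 h library 3, archaeal LSU and the G12 pseudoknot do not. Mean RPM at 48 h over that at 24 h is then 0.84 for bacterial SSU and 0.88 for bacterial LSU, beside 0.23 and 0.32 with it.

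RNAs that work next to the members were also not called. Of 7 RNAs that help mature rRNA, all listed and 5 tested, 0 were called in any comparison by edgeR. U3, which directs the first cuts of the rRNA precursor, ran from 32.6 to 2195 RPM, with both extremes in silica libraries (48 h library 2 and 24 h library 3). RNase MRP, which cuts the precursor ahead of 5.8S, ran from 1.98 to 18.04 RPM. Of 8 other structured RNAs, all listed and 6 tested, 0 were called. Y RNA, which binds the Ro protein, was the most frequent of them at 2676 to 12953 RPM. The RNA of the signal recognition particle, which delivers nascent proteins to the endoplasmic reticulum, stood at 1824 RPM in untreated library 1 and at 56.2 to 211 RPM in the other 8. 7SK, which holds back transcription elongation, stayed between 25.9 and 72.1 RPM.

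By Spearman's rho of the log2(RPM + 1) values over the 9 libraries, the non-member features most like the summed rRNA, of 448 compared, were the MALAT1-associated and MEN beta family (rho 0.733, Pearson's r 0.511), the small nucleolar RNA U6-53/MBII-28 (rho 0.683, r 0.588) and tRNA (rho 0.667, r 0.456). Those most like the summed snRNA were miR-1983 (rho 0.883, r 0.804), the mir-181 precursor family (rho 0.85, r 0.928) and miR-183-5p (rho 0.85, r 0.762). The points share their libraries and totals, and the features were picked as the highest of many, so these values describe the libraries only.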

How the data were processed

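Each of the 9 deposited files lists features with a whole-number count and a normalized value; the counts sum to the total in the file header, and per the file headers the authors also deposited the value called TPM, which equals reads per 1000000 of that total (RPM; largest difference 0.005) and was not used. Per the submitters' processing notes the authors used Trim Galore, Bowtie and HTSeq with mm10 (roles, versions and the handling of reads matching several features are not given in the sources used here); libraries were BGISEQ-500 small RNA libraries, per the labels' protocols. Members and lists were chosen with earlier results of these data known. Files were joined by Rfam identifier, with absent features as 0.

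The 4 summary entries for genome regions, which name no RNA and hold 46.5% to 61.0% of the counts, and predicted miRNAs stayed out of the tests; both stayed in the library size, the header total. edgeR 4.0.16 (R 4.3.3; glmQLFit, glmQLFTest, no scaling factors, filterByExpr with min.count 10, all 9 libraries, 6 residual degrees of freedom) tested 1875 features, with Benjamini-Hochberg adjustment over all and a threshold of 0.05. For class sums, exact permutation tests (two-sided, scipy 1.17.1) were run. Transcript sequences and lengths came from GENCODE M21. p-values measure the spread between these libraries only. Every member was named; values per library are given for the 12 members with a mean of at least 10 RPM, and other members by range or counts. The scripts were tested on simulated data for 24 h against untreated. With each feature's spread as in the real counts, edgeR called 2 of 75 features changed by a log2 of 2 in size. It called 8 of 75 changed by a log2 of 4. With a low spread (a dispersion of 0.05) it called 83 of 86 and 87 of 87. Alternatives included DESeq2 1.42.0, limma 3.58.1 (voom), other scalings and leaving out each library. No 2 libraries of the same group agreed within sampling noise, and pairs across groups were not compared in this way. Same-numbered libraries deviated together for 48 h and untreated (correlations 0.169, 0.569 and 0.370), each the highest for both its libraries. For 24 h and untreated (0.037, 0.314 and 0.268) each was the highest for its 24 h library, but untreated library 1 had 0.073 with the silica 24 h library 3. For 48 h and 24 h they were -0.098, 0.237 and 0.158. Numbers were taken to pair libraries for 48 h and untreated only. The main fits used no pairs, and the replicate block, which adds the library number to the fit, was an alternative. With it, 48 h against untreated gave -0.60 for eukaryotic SSU, 0.24 for eukaryotic LSU, -1.52 for U1, 0.056 for U2 and -0.14 for U6. The sequence of 1 further snRNA is not reported here.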

Additional observations from a re-analysis of the deposited data

How the results depend on the processing

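No member was called under any alternative, with the members' counts of calls 0 throughout, including leaving out each library and the replicate block (0 calls in each comparison). At the spread of the real features edgeR seldom called changes set in simulated counts, though the changed features were drawn from all features tested. These 0 calls do not show unchanged members. Of all features, edgeR without a filter on low counts called 11, 5 and 28 and DESeq2 13, 7 and 28. TMM factors moved the median log2 fold change of all features from 0.08 to -0.25 at 24 h against untreated and from -0.26 to -0.01 between 48 h and 24 h, so small member differences are relative to that shift. Without the genome region entries in the library size, a setting chosen after seeing the data, 2 members did not overlap between 48 h and 24 h (U7 higher, U2 lower) in place of 1. Of the 36 log2 fold changes of the 12 frequent members, 25 kept their sign under every alternative other than leaving out a library. The cause of the reversals was not tested.

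At 24 h against untreated, TMM factors gave -0.035 for eukaryotic LSU and -0.15 for the G12 pseudoknot; U6 was 0.089 with the mature miRNA total, 0.013 with limma-voom, 0.033 with the replicate block and 0.11 without the region entries. At 48 h against untreated, U2 was -0.042 with TMM factors, -0.047 with the mature miRNA total, -0.022 without the region entries and -0.0029 with the replicate block and TMM factors; U7 was -0.025, -0.097, -0.024 and -0.11 in that order and -0.043 with the replicate block alone. limma-voom gave 0.079 for archaeal SSU, 0.26 for archaeal LSU and 0.018 for the G12 pseudoknot; the replicate block gave 0.25 for archaeal LSU, and 0.20 with TMM factors. Between 48 h and 24 h, eukaryotic SSU was 0.27 with TMM factors, 0.12 with DESeq2's size factors or DESeq2, and 0.28 with the replicate block and TMM factors; eukaryotic LSU was 0.24 with TMM factors and 0.057 with DESeq2's size factors or DESeq2; U6 was 0.22, 0.11 and, with the block and TMM factors, 0.10. The snRNA sum between these times was 0.014 with TMM factors.

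Leaving out each library gave these ranges where a sign turned. At 24 h against untreated: G12 pseudoknot -0.63 to 0.88, U6 -0.32 to 0.38, archaeal LSU -1.13 to 1.39, bacterial LSU -0.76 to 1.40, bacterial SSU -0.75 to 1.74, eukaryotic LSU -0.36 to 0.79. At 48 h against untreated: G12 pseudoknot -1.13 to 0.050, U2 -0.10 to 0.27, U6 -0.59 to 0.34, U7 -0.54 to 0.46, archaeal LSU -0.68 to 0.59, archaeal SSU -1.33 to 0.12, eukaryotic LSU -0.70 to 0.72, and the rRNA to snRNA ratio -0.14 to 0.86. Between 48 h and 24 h: G12 pseudoknot -1.25 to 0.039, U1 -1.66 to 0.30, U6 -0.49 to 0.25, archaeal LSU -1.28 to 0.96, eukaryotic LSU -1.04 to 0.62, eukaryotic SSU -0.29 to 0.17, the rRNA sum -0.025 to 0.44 and the snRNA sum -0.69 to 0.031.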
